A study of Drosophila melanogaster with 2 samples.

Results

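The 10 ecdysone cascade and nuclear receptor genes described here are EcR, usp, br, Eip74EF, Eip75B, Eip78C, Hr3, ftz-f1, Hr39 and Hr38. They were examined for binding of Worniu, a Snail-family zinc-finger protein of the neural stem cells (neuroblasts) of the fly. The genes are grouped by their role in the ecdysone response, and they were chosen with earlier results of these data known. A peak was assigned to a gene where its summit, the base of highest signal, lay in the gene or within 5 kb of it. All 10 genes were found in the annotation, and 19 of the 3045 peaks on the 7 chromosome arms in the conservative list belonged to them, at 6 of the genes.

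The study was a chromatin immunoprecipitation with sequencing (ChIP-seq) on whole Drosophila melanogaster embryos collected from 0 to 18 h of age. The flies carried wor fused to enhanced green fluorescent protein (eGFP), and the fusion was pulled down with an antibody to GFP. There was 1 group of 2 biological replicates, both carrying the fusion, and no library without the tag was analysed here. The chromatin came from all cells of the embryo, so the lists do not say in which cells a site was bound. The promoter that drives the fusion is not given in the labels, and the collection spans most of embryogenesis without resolving time.

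Ecdysone is the steroid hormone that times molting and metamorphosis in the fly, and a pulse of it also occurs in mid-embryogenesis. Its receptor is a pair of nuclear receptors, EcR and Ultraspiracle, the product of usp. The receptor switches on a small set of early genes that encode transcription factors, which in turn act on early-late and late genes such as Hr3 and ftz-f1. In larval neuroblasts, ecdysone signaling is known to take part in the timed change of the transcription factors that these stem cells express.

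The authors deposited 4 thresholded lists, which keep peaks past an irreproducible discovery rate (IDR) of 0.01, and 4 ranked lists that also hold weaker peaks. The IDR is lower the better a peak's place in the order of strength repeats between call sets, and its −log10 is at least 2 in the thresholded lists. The thresholded lists held 1793 to 3061 peaks on the arms and the ranked lists 36134 to 62469. The signal of a peak is the authors' own value, is not scaled between lists, and is used here to order peaks within 1 list. The sequencing depth is not known from the lists.

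DNA is shown for some of the peaks, from RefSeq Release 6 (dm6) and written along the direction of transcription of the gene. They are the strongest peak of Eip74EF over its whole length, the part of the strongest Eip75B peak upstream of a transcript start, the central 101 bases of the strongest ftz-f1 peak and of a clustered ftz-f1 peak, and the central 101 bases of the br peak beside a neighboring start. Capitals mark matches to the motifs that were searched. The strongest Hr3 peak and the EcR peaks are not shown, and most of the sequences shown hold a match.
Eip74EF, chr3L:17566901-17567160, minus strand: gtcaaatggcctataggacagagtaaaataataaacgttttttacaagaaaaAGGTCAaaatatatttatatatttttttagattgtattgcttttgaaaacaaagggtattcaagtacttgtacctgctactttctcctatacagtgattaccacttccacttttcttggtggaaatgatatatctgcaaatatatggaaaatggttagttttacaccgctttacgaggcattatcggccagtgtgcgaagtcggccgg
Eip75B, chr3L:17999822-17999978, minus strand: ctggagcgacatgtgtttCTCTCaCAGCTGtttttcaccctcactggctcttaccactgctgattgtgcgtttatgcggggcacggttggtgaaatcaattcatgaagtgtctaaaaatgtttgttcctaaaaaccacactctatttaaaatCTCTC
ftz-f1 strongest, chr3L:18769501-18769601, minus strand: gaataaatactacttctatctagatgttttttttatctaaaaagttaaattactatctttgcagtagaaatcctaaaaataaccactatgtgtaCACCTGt
ftz-f1 clustered, chr3L:18786902-18787002, minus strand: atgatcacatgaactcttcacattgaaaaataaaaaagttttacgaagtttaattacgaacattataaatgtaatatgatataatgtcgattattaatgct
br downstream, chrX:1669307-1669407, plus strand: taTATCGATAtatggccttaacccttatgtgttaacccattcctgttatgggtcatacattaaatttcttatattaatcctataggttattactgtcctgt

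The capitals are few, and most of the bases are A or T. The Eip74EF peak holds 1 nuclear receptor half-site (AGGTCA), the Eip75B stretch holds 2 GAGA-type matches and 1 Ase/Ac-type E-box (CAGCTG), the strongest ftz-f1 window has 1 Snail-type E-box near its end (CAGGTG, here on the opposite strand), and the br window opens with a DRE (TATCGATA). The clustered ftz-f1 window holds none of the motifs.

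Among the 10 genes, 6 had at least 1 conservative peak, a share of 60.0% (95% Wilson interval 31.3 to 83.2%). Over all 13968 protein-coding genes the share was 32.9%. The 10 genes are long, with a median of 45.3 kb against 2.16 kb over all protein-coding genes, and 9 of them span at least 20 kb. Among the 1020 protein-coding genes of that length 55.2% had a conservative peak, nearer to the share of the 10 genes than 32.9%. The sets are not alike, since the 10 include usp, of 3.51 kb and without a conservative peak. All 6 genes with a peak were among the 9 long ones. The 20 kb limit was chosen after the lengths of the 10 genes were seen. The 19 peaks fell in 626 kb of sequence at a density of 3.03 per 100 kb, against 2.21 per 100 kb over the arms. The density was uneven, with 9.88 per 100 kb at ftz-f1 and 9.23 at Hr3 and at most 2.83 at any other of the genes.

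**Figure D1:**
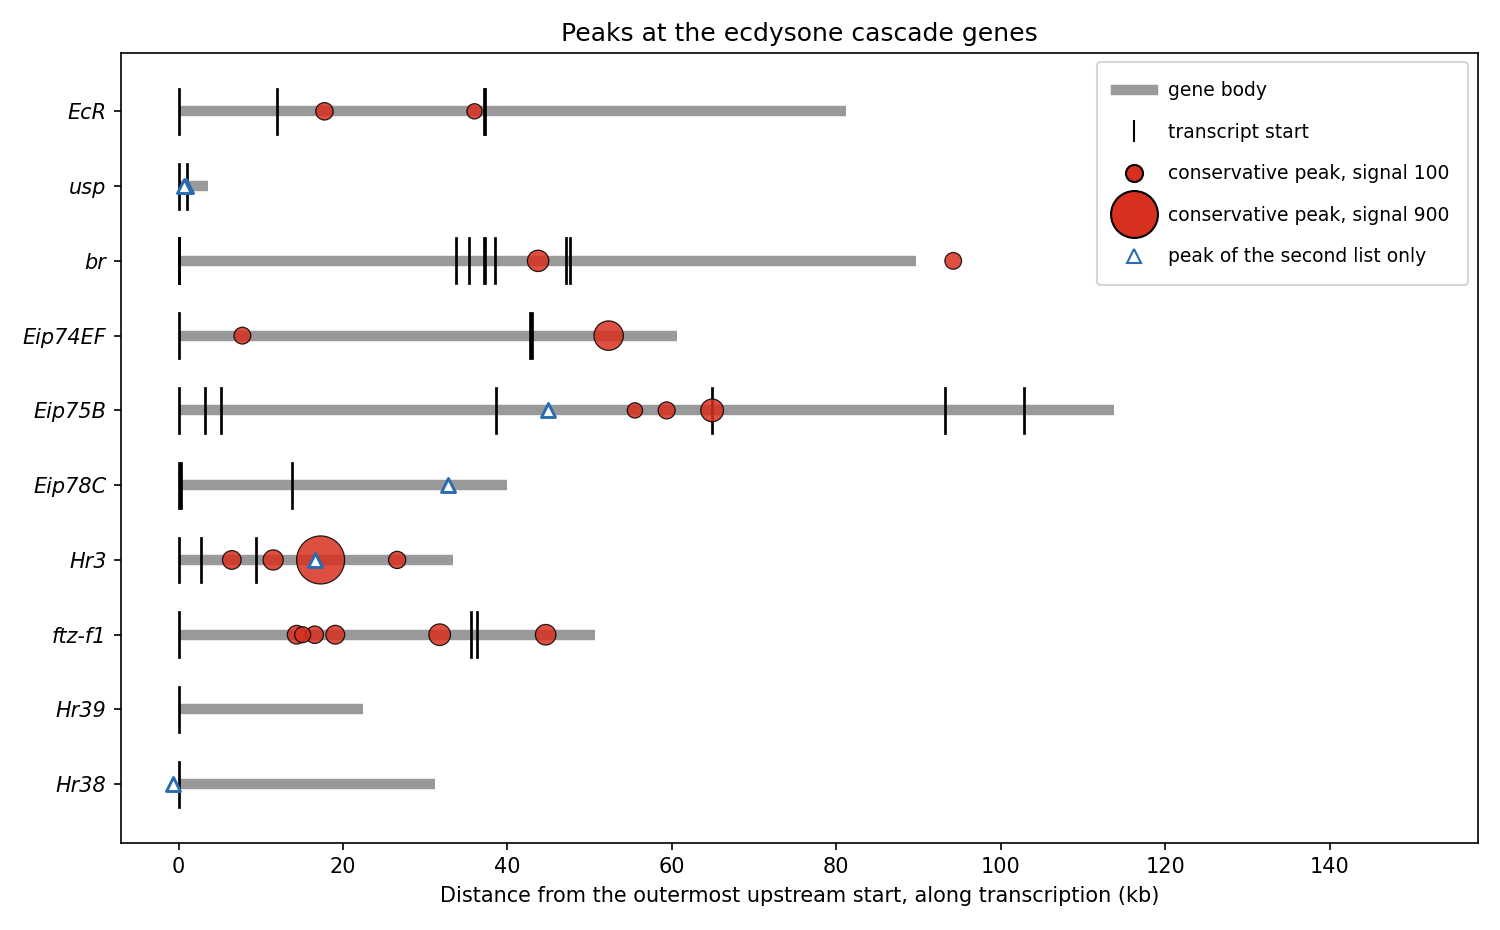
Position of peaks along each gene, drawn to scale in kb from its outermost upstream transcript start in the direction of transcription. Grey bars are gene bodies, black ticks are transcript starts, red circles are conservative peaks with area growing with signal, and open blue triangles are peaks of the second list only. The 19 red circles lie at EcR, br, Eip74EF, Eip75B, Hr3 and ftz-f1, mostly away from the ticks, and usp, Eip78C, Hr39 and Hr38 have none.

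At the hormone receptor both peaks were below the median signal of the list, 115. EcR, which spans 81.2 kb on arm 2R (positions 6087873 to 6169087), had 2 conservative peaks, both in introns. The stronger, at 6151163 to 6151526, had a signal of 105 and was number 1718 of 3045 in the list. Its signal was 60.8 in the replicate 1 ranked list and 42.6 in the replicate 2 ranked list, and it passed the threshold in replicate 1 alone. It lay 1331 bp from the start of tRNA:Asn-GTT-1-1 and 5784 bp downstream of the start shared by EcR-RD and EcR-RE. The weaker, at 6132915 to 6133278, had a signal of 75.5 (number 2504) and lay 1175 bp upstream of the start of EcR-RB and EcR-RC. It had signals of 36.4 in replicate 1 and 34.0 in replicate 2, was in neither replicate's thresholded list, and was not in the second list made from both replicates.

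usp, the partner of EcR, is the shortest of the genes (3.51 kb, X:2038798-2042311) and had no conservative peak. The second list made from both replicates held a peak at X:2041248-2041611 with a signal of 64.2, number 2724 of 3061, and a weaker overlapping peak. The summit of the 64.2 peak lay 118 bp upstream of the start of usp-RA. Its signal was 26.4 in the replicate 1 ranked list and 38.8 in the replicate 2 ranked list, and it passed the threshold in replicate 2 alone (number 1766 of 1793). In the ranked list that holds every conservative peak its −log10 IDR was 1.49, short of the limit of 2, and in the ranked list behind the second list it was 2.35.

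Of the early genes that encode transcription factors outside the nuclear receptor family, both had conservative peaks. Eip74EF, an ETS-domain factor known as E74 (3L:17558672-17619325), had the stronger pair. Its leading peak, shown above, had a signal of 340.4, was number 255 of 3045, and was 260 bp wide. The median width of the list was 364 bp, but that of its 304 strongest peaks was 243 bp. Of those 304 peaks, 97.0% were below the list median width, against 6.97% of the other 2741. The Eip74EF peak was thus not narrow for a peak of its strength. The peak had signals of 166 in replicate 1 and 177 in replicate 2 and passed the threshold in both. It lay in an intron 9304 bp downstream of the start of Eip74EF-RD, and the start nearest to it was that of CycT, which encodes cyclin T of the transcription elongation complex P-TEFb, at 9228 bp. The other peak, at 17611389 to 17611752, had a signal of 96.5 (number 1907) and lay 7754 bp downstream of the outermost start. Its signal was 31.6 in replicate 1 and 65.2 in replicate 2, and it passed the threshold in replicate 2 alone.

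br, which encodes the BTB zinc-finger factors of the Broad-Complex (X:1575132-1664869), had 2 conservative peaks, and each stood nearer to another gene's start than to one of its own. The stronger, at 1618679 to 1619042, had a signal of 169 (number 863), with 83.4 in replicate 1 and 86.6 in replicate 2, and passed the threshold in both. It was in an intron, 3447 bp upstream of br-RS and 706 bp upstream of Mur2B, a mucin-related gene that overlaps br. The weaker, at 1669175 to 1669538, lay past the end of br and 60 bp upstream of the start of CG3740. It had a signal of 95.1 (number 1947), with 49.1 in replicate 1 and 46.5 in replicate 2, and passed the threshold in replicate 2 alone. The assignment of that peak to br rests on the 5 kb flank, and 5 other protein-coding genes lie within 5 kb of its summit.

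Among the early genes of the nuclear receptor family, Eip75B was marked and Eip78C was not. Eip75B, a heme-binding receptor of the Rev-erb type known as E75, is the longest of the genes (3L:17950953-18064696) and has 7 distinct transcript starts. Its strongest peak had a signal of 195 (number 686), with 97.2 in replicate 1 and 101 in replicate 2, and passed the threshold in both. The summit lay 24 bp inside the 5′ UTR of Eip75B-RC. Of the 36 distinct transcript starts of the 10 genes, that of Eip75B-RC was the 1 with a conservative summit within 500 bp, against 9.43% of the starts of protein-coding genes. Upstream of it stood a peak of 99.4 (number 1839) at 5510 bp and a peak of 76.4 (number 2484) at 9370 bp. The 99.4 peak had signals of 66.2 in replicate 1 and 42.7 in replicate 2, and the 76.4 peak had 41.2 in replicate 1 and 34.7 in replicate 2 and was in neither replicate's thresholded list.

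A further site in Eip75B, at 18019629 to 18019992, was in the second list with a signal of 72.3 and in the replicate 1 thresholded list with 59.9. Its replicate 2 signal was 18.9, and its −log10 IDR in the ranked list behind the conservative list was 0.0991. The site passed the threshold in replicate 1 alone, and its signal in the second list was close to that of the weakest conservative peak of the gene.

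Eip78C, a further Rev-erb type receptor (3L:21226609-21266503), had no conservative peak. In the second list it had a peak of 69.5, number 2649, in an intron 19033 bp downstream of the nearest start of its own and 1360 bp from CG43218. That site had a signal of 22.0 in replicate 1 and 45.9 in replicate 2. Its −log10 IDR was 0.402 in the ranked list behind the conservative list and 2.23 in that behind the second list. The strongest Eip78C peak in the replicate 1 ranked list was another one, 3094 bp upstream of the gene, with 41.1. The replicates thus placed different sites first at Eip78C, as they did at Hr38 and Hr39, while at the other 7 genes they placed the same site first.

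Hr3, the ROR-type receptor that acts between the early genes and ftz-f1, held the strongest peak of all 10 genes. The gene spans 33.4 kb on arm 2R (10203995 to 10237348) and had 4 conservative peaks, all in introns. The leading peak, at 10219937 to 10220224, had a signal of 945 and was number 20 of 3045. It had signals of 510 in replicate 1 and 437 in replicate 2, was number 18 of 2266 in the replicate 1 thresholded list and number 16 of 1793 in the replicate 2 thresholded list, and lay 7882 bp downstream of the start of Hr3-RA, Hr3-RF and Hr3-RH. It was 288 bp wide, where the median width of the 304 strongest peaks of the list was 243 bp. Of the 101 bases at its summit 18.8% were G or C, the lowest value of the 19 peaks.

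The other Hr3 peaks were of ordinary strength. A peak of 149 (number 1057) stood 2110 bp downstream of that start and a peak of 125 (number 1358) stood 2921 bp upstream of it. The 149 peak had signals of 88.3 in replicate 1 and 59.9 in replicate 2, the 125 peak had 81.9 in replicate 1 and 41.1 in replicate 2, and both passed the threshold in replicate 1 alone. A peak of 102 (number 1779) lay 579 bp from the start of lncRNA:CR46322, with 40.6 in replicate 1 and 58.1 in replicate 2, and passed the threshold in replicate 2 alone. The start used by Hr3-RA, Hr3-RF and Hr3-RH is also annotated as that of CG46321, and CG12912 overlaps Hr3 too, so a summit there is not of Hr3 alone. The second list held an additional site of 69.9 (number 2639) beside the leading peak, at 10220532 to 10220895, with 26.2 in replicate 1 and 43.9 in replicate 2.

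ftz-f1, which encodes the NR5-type receptor that follows Hr3 in the cascade and is known as a competence factor for later ecdysone responses, had the most peaks. All 6 of its conservative peaks were in introns (gene at 3L:18750607-18801309). The strongest had a signal of 174 (number 830) and lay 3807 bp upstream of the start of ftz-f1-RC and ftz-f1-RD, with 78.5 in replicate 1 and 97.5 in replicate 2. The next had 155 (number 994), with 76.7 in replicate 1 and 76.4 in replicate 2, and lay nearest to lncRNA:CR45938, at 2575 bp. Both passed the threshold in both replicates.

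The remaining 4 ftz-f1 peaks formed a cluster of 4700 bp between the first and last summit, 14357 to 16558 bp from the nearest ftz-f1 start. In the order of their position from 18782252 to 18786952 their signals were 126, 107, 85.1 and 124. Each had at least 3 other conservative summits within 5 kb, as had 181 of the 3045 peaks of the list (5.94%). In replicate 1 the 4 peaks ranged from 47.7 to 63.1 and all passed the threshold, whereas in replicate 2 they ranged from 43.4 to 54.8 and the outer 2 passed. At least 6 peaks were found at 0.265% of all protein-coding genes and at 3.14% of those of at least 20 kb. ftz-f1 contributed 6 of the 19 peaks, so counts and medians over all 19 lean on it.

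Hr39, the other NR5-type receptor (2L:21237250-21259675), and Hr38, an NR4-type receptor that can also pair with Ultraspiracle (2L:20683462-20714588), had no conservative peak. Hr38 had a peak of 67.0 in the second list (number 2689), 670 bp upstream of its start, with 27.3 in replicate 1 and 42.0 in replicate 2 and a −log10 IDR of 0.0980 in the ranked list behind the conservative list and 2.03 in that behind the second list. Hr39 was the 1 gene of the 10 with no peak in any thresholded list. Its strongest ranked peak, of 48.8 and number 6200 of 62469, lay past its end and 20 bp from the start of mir-4974. That list held 10 peaks at Hr39, the fewest of the 10 genes. By length it was not the sparsest, with 30.8 per 100 kb against 28.5 at EcR.

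**Figure D2:**
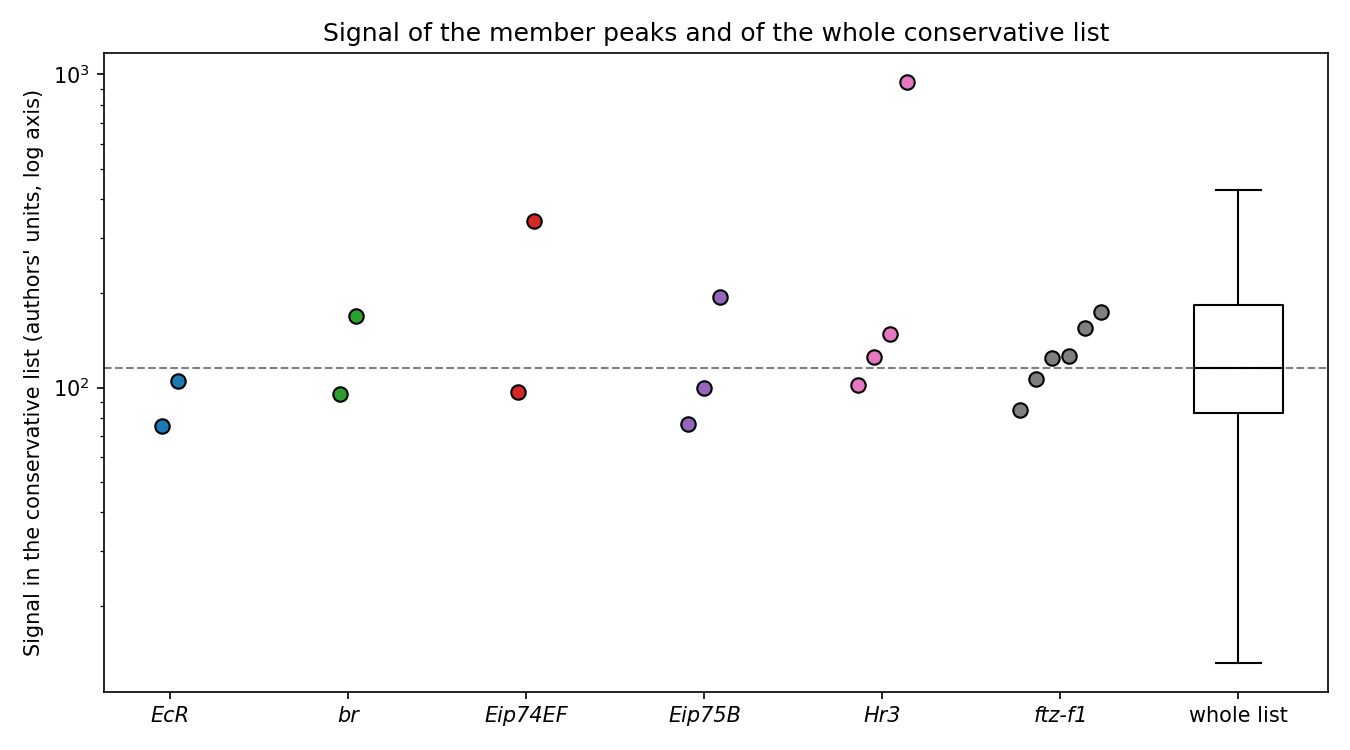
Signal of each conservative peak by gene (points, log axis, authors' units) beside the whole list of 3045 peaks (box from the lower to the upper quartile, whiskers from the 5th to the 95th percentile). The dashed line is the list median of 115. The Hr3 peak of 945 and the Eip74EF peak of 340.4 stand highest, and both EcR peaks lie under the line.

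The 19 peaks were spread over much of the range of the list. Their signals ran from 75.5 to 945 with a median of 124, and the list had a median of 115 with quartiles of 82.7 and 183. Above the list median stood 10 of the 19 peaks, or 52.6% (31.7 to 72.7%). The median percentile of signal was 55.1 for the 19, but 42.9 in the second list, 46.1 in the replicate 1 list, 40.3 in the replicate 2 list and 43.6 in the conservative list without ftz-f1, so the side of the list median on which the peaks fall is not settled. In the strongest 10% of the list stood 2 of the 19, the leading peaks of Hr3 and Eip74EF, a share of 10.5% against 9.98% over the list. The weakest of the 19, at 75.5 and 76.4, had −log10 IDR values of 2.21 and 2.42. Left out of the conservative list were the second-list peaks of 72.3 at Eip75B, 69.9 at Hr3, 69.5 at Eip78C, 67.0 at Hr38 and 64.2 at usp. Their −log10 IDR values in the same ranked list were 0.0991, 1.39, 0.402, 0.0980 and 1.49, all short of the limit of 2. Signal alone does not set the list, whose lowest signal was 2.02.

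Across the lists, the second list held 24 peaks at 9 of the 10 genes, against 33.0% of all protein-coding genes in that list and 54.1% of those of at least 20 kb. The replicate 1 thresholded list held 16 peaks at 6 genes (28.5% of all protein-coding genes had 1 or more), and the replicate 2 thresholded list held 12 peaks at 6 genes (24.9%). EcR was marked in replicate 1 and not in replicate 2, and usp in replicate 2 and not in replicate 1, which left 5 genes marked in both: br, Eip74EF, Eip75B, Hr3 and ftz-f1. Of all protein-coding genes 22.4% were marked in both lists, and 38.7% of those of at least 20 kb. The ranked lists held peaks at all 10 genes, 346 in the list behind the conservative list. That list held 62469 peaks on the arms, and the share of all protein-coding genes with a ranked peak is not given here. The count thus does not set the 10 genes apart. The 346 ranked peaks were spread over all the genes, from 10 at Hr39 to 83 at Eip75B, and most did not reach the threshold. Per 100 kb they ran from 28.5 at EcR to 96.2 at usp.

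**Figure D3:**
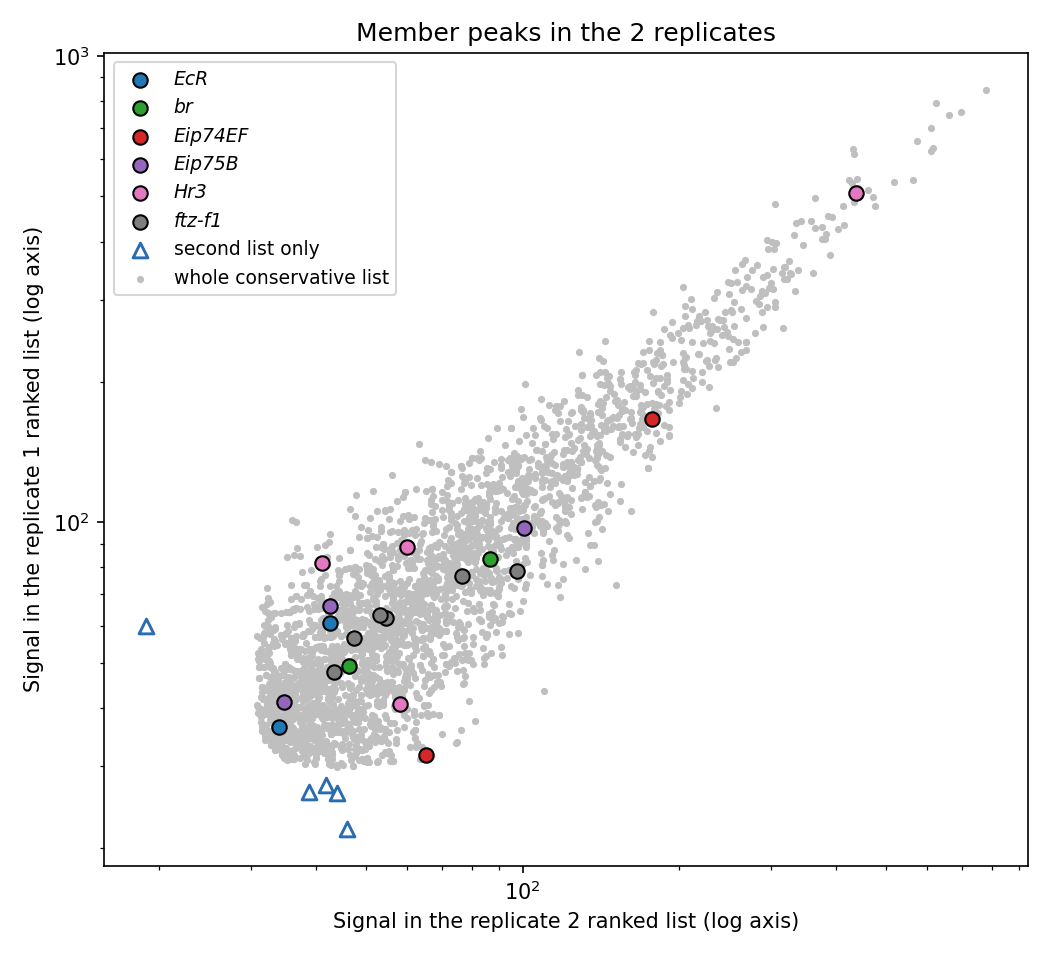
Signal of the conservative peaks in the replicate 1 ranked list against the replicate 2 ranked list (log axes, authors' units not scaled between lists). Colored points are the 19 peaks of the ecdysone cascade genes, open triangles are peaks of the second list only, and grey points are the whole conservative list. The Hr3 peak with 510 and 437 lies near the upper end, and the open triangles lie outside the grey points.

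All 19 peaks were found in both replicates' ranked lists, as were 98.7% of the whole conservative list. In both thresholded lists stood 8 of the 19, or 42.1% (23.1 to 63.7%), against 52.3% of the list. The 8 were the leading peaks of Hr3, Eip74EF, Eip75B and br and 4 of the 6 ftz-f1 peaks. A further 9 passed in 1 replicate. The other 2, or 10.5% against 21.6% of the list, passed in neither and were the weaker EcR peak and the 76.4 peak of Eip75B.

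The summits of the 10 genes stood away from transcript starts. Within 500 bp of a start lay 2 of the 19, or 10.5% (2.94 to 31.4%), against 1268 of 3045 over the list, or 41.6%. The 2 were the Eip75B-RC peak and the br peak beside CG3740, so 1 of 19 stood within 500 bp of a start of its own gene. In the replicate 1 thresholded list the share was 6.25% (1 of 16) against 46.1% of that list, and in the replicate 2 thresholded list it was 25% (3 of 12, interval 8.89 to 53.2%) against 47.4%, so the value rests on few peaks. The median distance to any start was 3807 bp for the 19 and 856 bp for the list. Introns held 17 of the 19, and 13 lay more than 5 kb from any start of their own gene. Those counts are not set beside the list here, and the 10 genes are long. Of the conservative peaks at protein-coding genes of at least 20 kb, 351 of 1253 lay within 500 bp of a start (28.0%), with a median distance of 1839 bp. Long genes thus had a lower share near a start than the whole list, and the part of length in the value of the 10 genes was not tested.

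**Figure D4:**
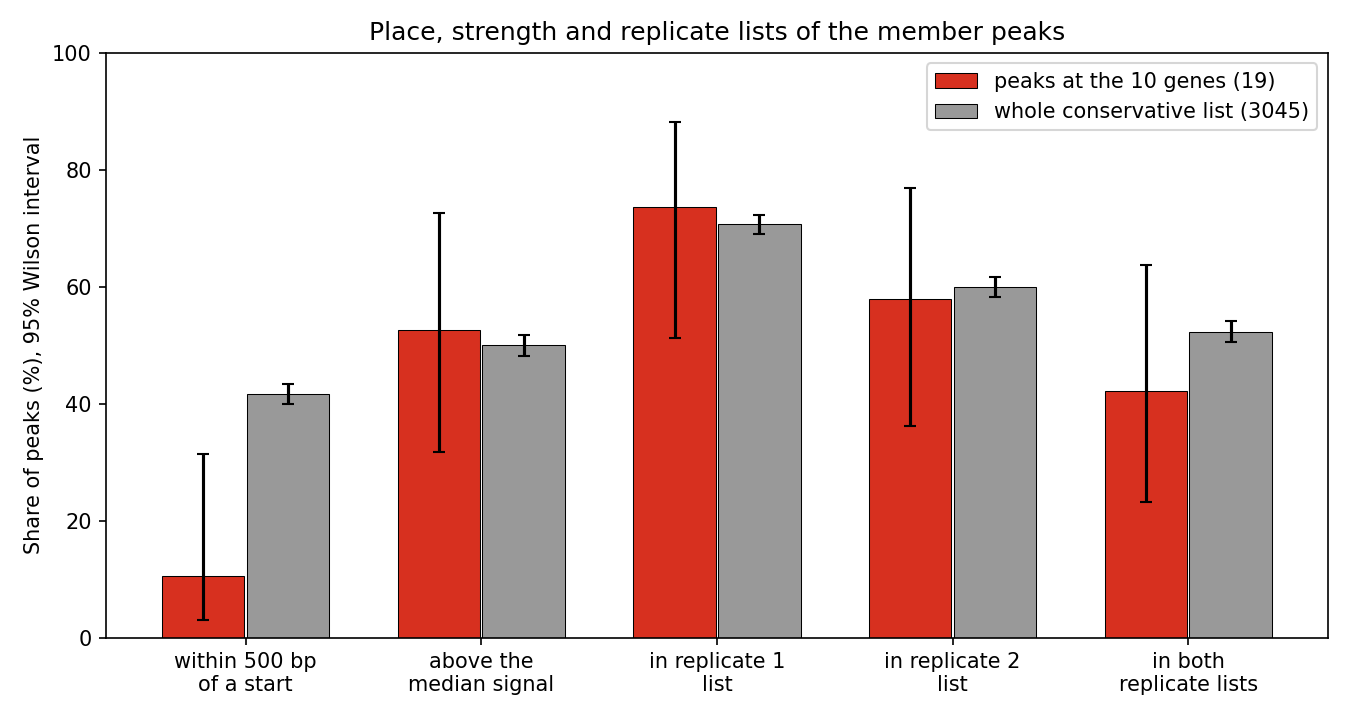
Share of the 19 peaks at the 10 genes (red) and of the whole conservative list of 3045 (grey) that lie within 500 bp of a transcript start, have a signal above the list median, or overlap a peak of each replicate's thresholded list or of both. Error bars are 95% Wilson intervals. The drawn intervals overlap for each measure except nearness to a start, at 10.5% and 41.6%. They treat peaks as independent, though ftz-f1 contributed 6 of the 19. Not drawn is the share near a start at protein-coding genes of at least 20 kb, 28.0% (25.6 to 30.6%). That interval overlaps the 2.94 to 31.4% of the 19 peaks.

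The sequence at the summits was rich in A and T. Within 50 bp of the summit the median share of G and C was 28.7% for the 19 peaks and 30.7% for the list. In windows of the same width 500 bp to either side it was 41.6% for the 19 and 43.6% for the list. At 17 of the 19 the summit had less G and C than the mean of the flanking windows, as at 2510 of 3045 over the list. No peak of the 10 genes lay in an annotated transposon, a count that is not set beside the list here.

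Within 50 bp of these summits the motifs searched had few matches. Both strands were searched, up to 50 bp from the summit. The Snail-type E-box CAGGTG, the core of the sites bound by Snail-family proteins, was at 1 of the 19, the strongest ftz-f1 peak shown above. That is 5.26% (0.935 to 24.6%), against 2.04% of the list. Within 100 bp the values were 5.26% against 4.56%, and over whole peaks 5.26% against 9.13%. The direction against the list thus turned with the window, and the share of the 19 rests on 1 peak. The nuclear receptor half-site AGGTCA was at none, against 1.81% of the list, and the longer FTZ-F1-type site CAAGGTCA, which contains it, was at none, against 0.131%. By the rule of 3 counts of the total, a count of 0 of 19 allows a share of up to 15.8%, and the upper Wilson limit is 16.8%. The half-site in the Eip74EF peak shown above lay 89.5 bp from the summit. Within 100 bp the half-site was at 5.26% of the 19 against 3.84% of the list, and over whole peaks at 5.26% against 6.77%.

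GAGAG, the site of the GAGA factor, was within 50 bp at 1 of the 19, the Eip75B-RC peak, against 7.72% of the list. Within 100 bp it was at 31.6% of the 19 against 20.4% of the list, and over whole peaks at 42.1% against 37.2%, so the direction against the list turned with the window. TATCGATA, the DRE of promoters of housekeeping genes, was at the br peak 60 bp upstream of CG3740 alone, against 0.558% of the list. The Zelda-type CAGGTAG (0.394% of the list), the Ase/Ac-type E-box CAGCTG (2.73%), the M1BP-type GGTCACACT (0.164%) and the control GTGGAC, the reversed letters of the Snail-type site (1.15%), were at none of the 19. The strongest Hr3 peak held none of the motifs within 50 bp of its summit.

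The wider ecdysone system was covered by 4 lists of related genes, to be read against the 32.9% of all protein-coding genes with a conservative peak, which lies inside the 95% Wilson interval of each list. Among 13 other nuclear receptors, of median length 8.06 kb, 6 had a conservative peak, or 46.2% (23.2 to 70.9%). Over all protein-coding genes the median length was 2.16 kb, and no list was compared with genes of like length. Hr4, a nuclear receptor gene of the ecdysone cascade, had 9 peaks, the strongest with a signal of 401, more peaks than ftz-f1. ERR, the estrogen-related receptor, had a peak of 225, Hr96 a peak of 199.5, Hr83 a peak of 135 and Hnf4 a peak of 108, whereas Hr51, Hr78 and dsf had none. The Hr83 peak lay past the end of the gene, 4595 bp from its own start. Among 12 genes of ecdysone synthesis and turnover, whose median length was 2.50 kb, 2 had a peak, or 16.7% (4.70 to 44.8%), against 32.9% of all protein-coding genes. They were ecd with 199 and shd, which makes the active 20-hydroxyecdysone, with 65.8. The ecd peak lay past the end of the gene, 3097 bp from its own start, and the shd peak was in neither replicate's thresholded list. Cyp18a1, Cyp6t3 and Eo had none.

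Among 13 receptor coregulators, of median length 7.40 kb, 7 had a peak, or 53.8% (29.1 to 76.8%), against 32.9% of all protein-coding genes. The strongest were those of Nup98-96, a nucleoporin gene, with 379, bon with 245, Hsp83, which encodes the Hsp90 chaperone, with 232, Smr, a corepressor of EcR, with 205, and tai, a coactivator of EcR, with 154. The Nup98-96 peak of 379 lay past the end of the gene, 8439 bp from its own start. E(bx), Hcf and Utx had none. Among 27 ecdysone-induced and juvenile hormone response genes, of median length 5.16 kb, 12 had a peak, or 44.4% (27.6 to 62.7%), against 32.9%. The strongest were at E23, an ABC transporter gene, with 550.4, gce, a juvenile hormone receptor gene, with 538, ImpL2, a binding protein for insulin-like peptides, with 432, Eip63E with 373 and Ldh with 293. Blimp-1, CtsL1 and Dronc had none. The Hr3 peak of 945 exceeded every conservative peak of these 4 lists.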

How the data were processed

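Anti-GFP ChIP-seq was done on 2 biological replicates of 1 group. Per the labels, chromatin was sonicated, fragments spanned 200 to 800 bp and peaks are on dm6. Neither aligner nor peak caller was given in the sources used here. No control library is analysed here. The deposited signal, the score (a whole number capped at 1000), the summit offset and, in the ranked lists, the −log10 of the global IDR are the authors' values. The ranked lists of both replicates carry 8 further columns of values for their inputs, which were not used. The score was used to check the threshold.

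Genes came from Ensembl release 115 (BDGP6 annotation 54), without transposable-element transcripts, and arm lengths were checked against the lists. Peaks matched when they overlapped by at least 1 bp. Shares carry 95% Wilson intervals, which reflect counting error alone. No test was run, since there is 1 group. Depth per library is unknown. Placement was tested on simulated peaks. Of 68 related symbols, 3 matched no single gene. Named are all 10 genes, and per related list up to 5 genes with the strongest peak and up to 3 without. Those without were taken in alphabetical order, with capital letters before small ones. The genes and lists were chosen with earlier results of these data known. Scripts used Python 3.11.15, pandas 2.3.3 and numpy 2.4.6.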

Additional observations from a re-analysis of the deposited data

How the results depend on the processing

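The count of genes with a conservative peak, 6 in the main setting, was 5 to 9 under the alternatives run, with 9 in the second list. The share of summits near a start, 10.5%, was 5.56 to 25%, inside its 95% interval. The median signal percentile of the 19 peaks, 55.1 in the main setting, was 42.9 in the second list and 43.6 without ftz-f1, the latter chosen after seeing the data. In the 50% of the list with the higher signal it was 69.5, a rise fixed in advance because only peaks above the list median were kept. It was 40.3 to 46.1 in the lists of single replicates. The number of peaks, 19, was 12 without replicate 1 and 16 without replicate 2. It was 10 in the 50% of the list with the higher signal, which is the count above the list median again. The number found in both replicates, 8, was 19 in the ranked lists. GAGAG matches, at 5.26% of summits within 50 bp, were at 31.6% within 100 bp and 42.1% over whole peaks, against 20.4% and 37.2% of the list, as wider windows hold more letters. Apart from the shifts that follow from the cut at the list median, the cause of the other shifts was not tested. No paired analysis was possible because there is 1 group. Counts as low as 19 peaks leave wide intervals, and without depth or a control library weak peaks cannot be judged further.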

Other observations

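The letters AGTAG were noticed by eye in the windows of the 10 genes and counted afterwards, so the count is a description of windows already seen. They were within 50 bp of the summit at 7 of the 19 peaks, and in 1 of 19 windows 500 bp to each side, against 12.4% of the whole list at the summit. Of the 422 sets of 5 letters that occur in the 19 windows, 49 occur in at least 7 of them. Over the whole list AGTAG was at 379 summits, against a mean of 294.5 in the windows to either side. Ordered by excess over those windows, it was number 119 of 512 sets of 5 letters, so it did not stand out.

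A total of 6 scans were run after the data were seen, of all sets of 5, 6 and 7 letters, over the whole list and over its strongest 300 peaks. Sets of A and T led each of them. TTAAA led the scans of 5 letters, with 1874 of 3045 summits against a mean of 871.5 windows to either side. It was at 12 of the 19 summits of the 10 genes, or 63.2%, and at 5 of 19 windows on each side, against 61.5% of the list at the summit.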
